A study of Mus musculus with 6 samples.

Results

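The 9 genes described here make, take up, bind, sense and degrade retinoic acid: Aldh1a1, Aldh1a2, Aldh1a3, Stra6, Crabp1, Crabp2, Rarb, Rarg and Cyp26b1. They were chosen by symbol, with every row of each gene in the authors' comparison table, which gave 14 of its 25697 rows and 9 of its 18138 symbols. Ovaries came from Swiss mice at postnatal day 3 to 4 and were cultured on floating inserts for 96 h. In 3 samples the medium carried 5 µM 3-methylcholanthrene (3MC), a combustion product and ligand of the aryl hydrocarbon receptor (AhR), at a concentration that the labels describe as chosen to be overtly toxic. In 3 other samples it carried the vehicle alone, 0.01% dimethyl sulfoxide (DMSO). Medium in both groups contained fetal calf serum, albumin, basic fibroblast growth factor, leukemia inhibitory factor and stem cell factor, so neither group was free of serum. RNA of each sample was read on a 1-colour Illumina mouse array. Nothing in the labels tells if replicates were separate cultures, so the p-values may measure technical spread.

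Retinol, or vitamin A, enters cells with the help of the membrane receptor STRA6, is oxidised to retinal, and is turned into retinoic acid by the ALDH1A retinal dehydrogenases. Retinoic acid is carried in the cytosol by CRABP proteins, acts through nuclear receptors of the RAR family that pair with RXRs, and is cleared by CYP26 enzymes. In the fetal ovary retinoic acid is known for its part in the entry of germ cells into meiosis, and in later ovaries ALDH1A enzymes are found in somatic cells.

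Within this set the genes did not move together. Aldh1a1 rose with 3MC by 1.71-fold, Stra6 by 1.33-fold and 1 probe of Rarg by 1.23-fold, while Aldh1a2 fell to 0.684 of its DMSO level. In the authors' deposited table, the second Aldh1a2 row had a ratio of 3MC over DMSO of 0.756, and the remaining rows ran from 0.925 to 1.155, both ends being rows of Rarb. Of the 14 rows, 1 reached a 1.5-fold ratio in that table, and it was higher with 3MC, against 2.10% of all rows in either direction and 1.12% higher. Of the 14 rows, 6 had an unadjusted p of the authors under 0.05, against 20.2% of all rows. The set was chosen with earlier results of these data known, and both Aldh1a2 rows are among the 6. These shares are therefore a description and not a test of the set. The median log2 ratio of the 14 rows was 0.01, beside a median of 0.00088 over all rows.

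**Figure D1:**
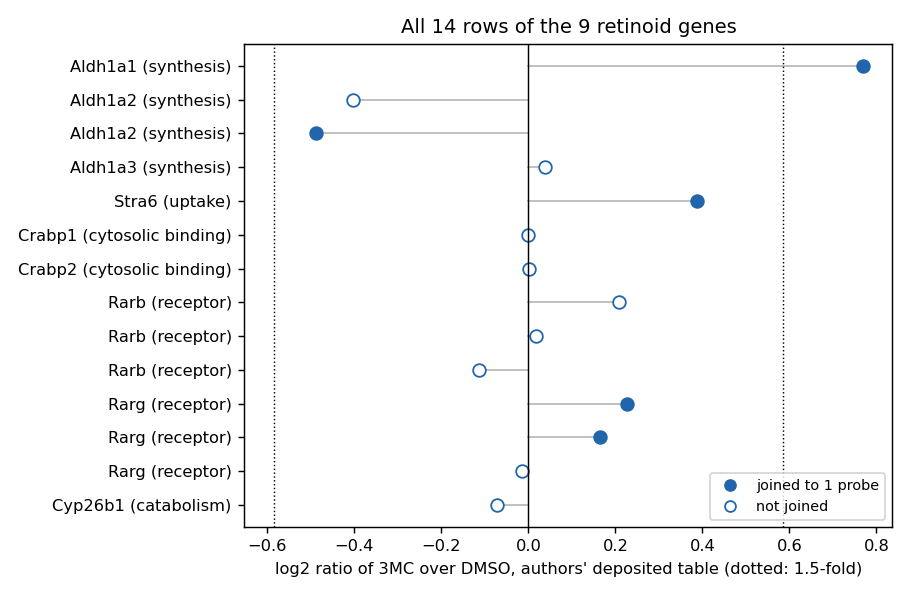
Log2 ratio of 3MC over DMSO in the authors' deposited table for all 14 rows of the 9 genes, ordered by role. Filled points are the 5 rows that could be joined to 1 probe, open points the 9 that could not, and dotted lines mark 1.5-fold; only the Aldh1a1 row lies beyond them.

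Array values exist only for rows that could be tied to a probe. The comparison table names genes, the value tables name probes, and both share no identifier, so a row was joined to a probe where its ratio matched the difference of group means of that probe and of no other within 5e-05 on the log2 scale. This gave 5 member rows with array values, from Aldh1a1, Aldh1a2, Stra6 and Rarg (2 rows). The join works where ratios are sparse: 43.8% of rows with a log2 ratio of 0.15 or more in size were joined, and 0.785% of the rest. The 5 joined rows were all kept by the filter on dim probes, and 4 of them passed limma's moderated test at an adjusted p of 0.05 (3 higher, 1 lower). The background was 32.2% of the 12848 kept probes, and 86.1% of the 2562 kept probes that were joined. The members' share, 4 of 5, was near that of all joined probes. With arrays centred only on their medians 2 of the 5 passed, against 8.61% of kept probes and 35.9% of joined ones. Without 3MC replicate 1, 4 passed, against 28.1% of kept probes and 78.7% of joined ones.

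The arrays differed in brightness. The median scanner signal was 98.1 to 124.5 in the 3MC samples, with 3MC replicate 1 the brightest, and 107.8 to 109.1 in the DMSO samples. Across probes, r was 0.978 to 0.979 for a 3MC array paired with a DMSO array, and 0.995 to 0.996 within groups. In the authors' deposited table the 8 AhR target genes had 12 rows, whose median log2 ratio was 0.12. The 4 rows joined, which the join picks for large ratios, rose (Nqo1, Ugt1a6a, Ahrr and Cyp1b1). Named after their values were seen, other AhR targets had ratios of 0.993 (Cyp1a1), 1.023 and 0.9998 (both rows of Cyp1a2) and 1.033 (Tiparp) in that table. The largest shift among the joined rows of the marker lists was in leukocyte genes. All 13 leukocyte rows that were joined and kept, from 9 genes, fell, with a median log2 fold change of -1.23. Of all kept joined probes 86.1% passed in either direction. Their summed signal was 1623 to 1682 in 3MC samples and 4902 to 4986 in DMSO samples. Another 5 leukocyte rows were counted as not joined to any probe. The authors' deposited table gave 0 of these 5 an unadjusted p under 0.05, with a median of 0.03 on the log2 scale. The list held 19 rows in all, of which 14 had such a p, so the 13 and the 5 do not cover every row. The part of cell composition in the values below was not tested, and fewer cells of a type cannot be told apart from less RNA per cell.

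Of the enzymes of synthesis, Aldh1a1 and Aldh1a2 moved in opposite directions. Aldh1a1 (chromosome 19, probe ILMN_1222734) encodes retinal dehydrogenase 1, which also oxidises other aldehydes. Its normalized log2 signal was 10.20, 10.32 and 10.21 in 3MC replicates 1 to 3, against 9.50, 9.42 and 9.49 in DMSO replicates 1 to 3. Every 3MC sample was higher than every DMSO sample, also in unnormalized scanner signal (907.5 to 1630.9 in 3MC, 744.3 to 845.8 in DMSO). The means were 10.24 ± 0.070 with 3MC and 9.47 ± 0.046 with DMSO (SD, n = 3 each), a log2 fold change of 0.78 ± 0.085 (SE, limma adjusted p = 3.71e-09). Its fold lay above that of the median passing probe, whose absolute log2 fold change was 0.35. Aldh1a1 has a close relative, Aldh1a7, which the authors' deposited table gives at a ratio of 0.961 (p = 0.407). Whether the 2 transcripts are separated by the probes was not tested.

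Aldh1a2 (chromosome 9), the retinal dehydrogenase of embryonic mesoderm and of mesothelium, was read by 2 rows, and both had a ratio below 1. The joined probe, ILMN_2630753, had normalized log2 signals of 7.82, 7.65 and 7.82 in 3MC replicates 1 to 3, against 8.31, 8.27 and 8.36 in DMSO replicates 1 to 3. The groups did not overlap, in scanner signal either (194.5 to 342.2 in 3MC, 353.7 to 380.6 in DMSO). The means were 7.76 ± 0.098 with 3MC and 8.31 ± 0.046 with DMSO (SD, n = 3 each), and the log2 fold change was -0.55 ± 0.086 (SE, limma adjusted p = 4.64e-06). The second row, at a ratio of 0.756 (p = 0.00341) in the authors' deposited table, had 2 possible probes. ILMN_2630749 matched that ratio more closely than ILMN_2973925, with differences of 2.0e-06 and 3.9e-05 on the log2 scale. Either one was lower with 3MC: ILMN_2630749 had a log2 fold change of -0.41 ± 0.086 (limma adjusted p = 0.000312) and ILMN_2973925 one of -0.39 ± 0.084 (limma adjusted p = 0.000376). With arrays centred only on their medians the first of these missed the threshold (log2 -0.54, adjusted p = 0.0641), while the second did not (-0.53, adjusted p = 0.0358).

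The promoters of both enzymes are shown because their transcripts moved apart under an AhR ligand, with matches to GCGTG, the core of the AhR binding site, in capitals on either strand. Each window runs from 250 bases before to 50 after a RefSeq transcript start (GRCm38.p6). The Aldh1a1 window is the second of 2 and lies at chr19:20601718-20602017 on the plus strand, and that of Aldh1a2 at chr9:71215539-71215838 on the plus strand.
Aldh1a1: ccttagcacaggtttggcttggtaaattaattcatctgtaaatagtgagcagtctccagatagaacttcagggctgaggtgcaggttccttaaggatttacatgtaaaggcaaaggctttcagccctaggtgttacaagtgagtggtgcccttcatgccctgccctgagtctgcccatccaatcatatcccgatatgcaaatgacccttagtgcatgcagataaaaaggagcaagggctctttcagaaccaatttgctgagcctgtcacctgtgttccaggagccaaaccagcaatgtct
Aldh1a2: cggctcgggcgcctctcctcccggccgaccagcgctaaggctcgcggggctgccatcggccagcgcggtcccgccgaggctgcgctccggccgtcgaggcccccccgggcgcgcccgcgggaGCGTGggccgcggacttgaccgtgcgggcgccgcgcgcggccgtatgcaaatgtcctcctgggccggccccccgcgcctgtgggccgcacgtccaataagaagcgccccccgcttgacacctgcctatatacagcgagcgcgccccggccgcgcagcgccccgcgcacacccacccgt
Neither Aldh1a1 window held GCGTG, and the Aldh1a2 window held it 1 time, at position -128 from the start. Over all 32851 promoter windows, 32.4% held it, so a match is a description of these letters and not of binding.

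Aldh1a3 (chromosome 7), the third retinal dehydrogenase, stood at a ratio of 1.027 in the authors' deposited table (p = 0.495). Its row had 10 possible probes, 3 of them above the filter and 0 of them past the adjusted threshold. Those probes ranged from the 1.84th to the 96.7th percentile of signal, so whether Aldh1a3 was detected is not known.

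Stra6 (chromosome 9, probe ILMN_2753792), which encodes the receptor that takes up retinol from its plasma carrier RBP4, rose. Its normalized log2 signal was 9.04, 9.01 and 9.29 in 3MC replicates 1 to 3, against 8.65, 8.74 and 8.72 in DMSO replicates 1 to 3. The normalized groups did not overlap, but the scanner signals did, at 454.2 to 757.4 in 3MC samples and 456.1 to 477.2 in DMSO samples. The means were 9.11 ± 0.15 with 3MC and 8.71 ± 0.045 with DMSO (SD, n = 3 each), a log2 fold change of 0.41 ± 0.089 (SE, limma adjusted p = 0.000505). With median centring in place of quantile normalization the value was 0.28 and the call was lost (adjusted p = 0.290).

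The cytosolic binding proteins stayed close to a ratio of 1 in the authors' deposited table. There, Crabp1 (chromosome 9) had a ratio of 0.999 (the authors' p = 0.985) and Crabp2 (chromosome 3), which delivers retinoic acid to the receptors, one of 1.001 (the authors' p = 0.989). Their rows had 14 and 8 possible probes, which spanned signals from the 0.206th to the 97.2nd percentile for Crabp1 and from the 9.85th to the 61.5th for Crabp2. A ratio near 1 from a probe of unknown brightness does not show that a transcript was unchanged.

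**Figure D2:**
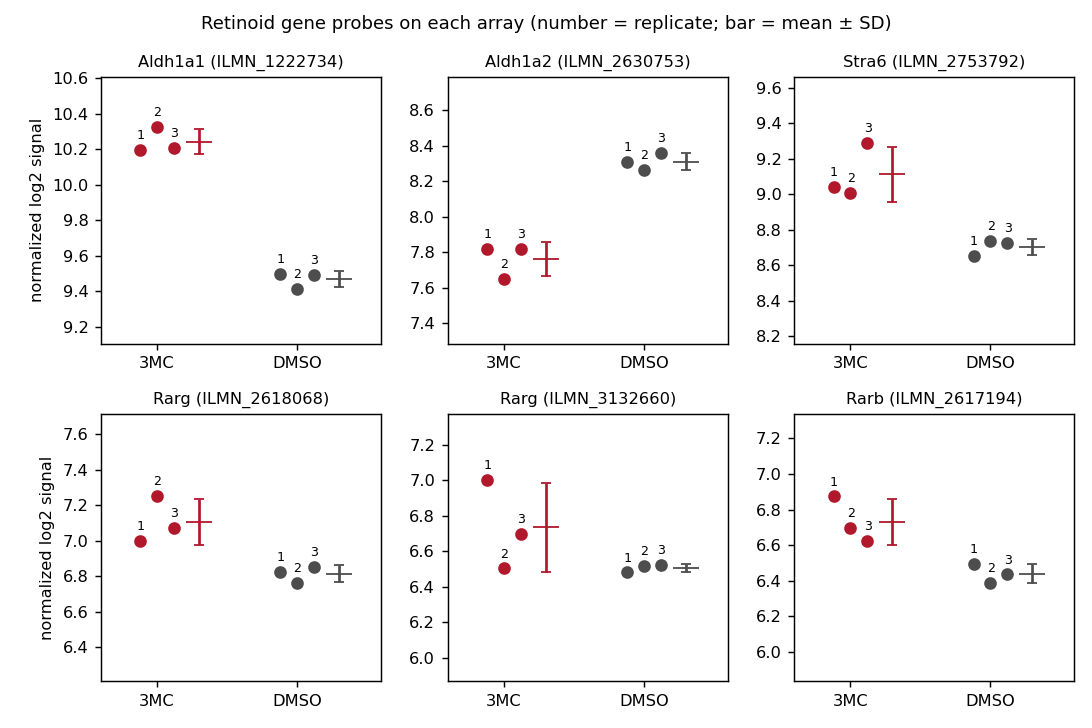
Normalized log2 signal on each of the 6 arrays for the 5 joined probes and for the only possible probe of 1 Rarb row, with 3MC left of DMSO, replicate numbers above the points, and mean ± SD (n = 3) as bars. Every panel spans the same range of log2 signal; the groups separate in 5 panels and overlap for Rarg probe ILMN_3132660.

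The receptors gave smaller values, and the rows of 1 gene differed. Rarg (chromosome 15), the retinoic acid receptor gamma, was read by 3 rows. At probe ILMN_2618068 the normalized log2 signal was 7.001, 7.25 and 7.07 in 3MC replicates 1 to 3, against 6.83, 6.76 and 6.85 in DMSO replicates 1 to 3. The normalized groups did not overlap, and the scanner signals did (137.3 to 198.6 in 3MC, 140.1 to 147.8 in DMSO). The log2 fold change was 0.29 ± 0.088 (SE, n = 3 each, limma adjusted p = 0.00972). That call was lost with median centring (0.24, adjusted p = 0.344) and without 3MC replicate 2 (0.23, adjusted p = 0.0764).

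At the other joined Rarg probe, ILMN_3132660, the signals were 6.999, 6.50 and 6.70 in 3MC replicates 1 to 3 and 6.48, 6.51 and 6.52 in DMSO replicates 1 to 3. Here 3MC replicate 1 stood highest and 3MC replicate 2 lay among the DMSO samples. The log2 fold change was 0.23 ± 0.097 (95% interval 0.03 to 0.42, limma adjusted p = 0.0700). It was 0.09 without 3MC replicate 1, and 0.35 without 3MC replicate 2, where it passed (adjusted p = 0.0106). Of the 5 joined rows, 4 had groups that did not overlap, against 42.4% of the kept probes and 88.9% of the joined ones. The third Rarg row had a ratio of 0.991 (p = 0.744) in the authors' deposited table and 13 possible probes.

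Rarb (chromosome 14), the retinoic acid receptor beta, is itself induced by retinoic acid through a direct repeat in its promoter. Its 3 rows carry the same RefSeq accession and had ratios of 1.155 (p = 0.0446), 1.012 (p = 0.703) and 0.925 (p = 0.0664) in the authors' deposited table, so they do not share a direction. The first row had 1 possible probe, ILMN_2617194, but a row of Psma4 lay within the tolerance of that probe too, so it was not joined. That probe had log2 signals of 6.87, 6.70 and 6.62 in 3MC replicates 1 to 3, against 6.49, 6.39 and 6.43 in DMSO replicates 1 to 3, with no overlap. Its log2 fold change was 0.29 ± 0.088 (SE, n = 3 each, limma adjusted p = 0.0100), a call lost under median centring (0.29, adjusted p = 0.284) and in the absence of 3MC replicate 1 (0.21, adjusted p = 0.0865). The row at 0.925 had 2 possible probes, and at the brighter one, ILMN_2639579, the log2 fold change was -0.11 ± 0.092 (95% interval -0.30 to 0.07, limma adjusted p = 0.369). The other, ILMN_1246864, matched the ratio more closely and lay below the filter on dim probes, with log2 signals of 5.83, 5.77 and 6.09 in 3MC replicates 1 to 3, against 6.02, 6.17 and 6.05 in DMSO replicates 1 to 3, which overlap.

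The Rarb promoter is shown because it carries the element through which retinoic acid acts on this gene. The window lies at chr14:16575427-16575726 on the minus strand (GRCm38.p6), with the direct repeat and a GCGTG match on the opposite strand in capitals.
Rarb: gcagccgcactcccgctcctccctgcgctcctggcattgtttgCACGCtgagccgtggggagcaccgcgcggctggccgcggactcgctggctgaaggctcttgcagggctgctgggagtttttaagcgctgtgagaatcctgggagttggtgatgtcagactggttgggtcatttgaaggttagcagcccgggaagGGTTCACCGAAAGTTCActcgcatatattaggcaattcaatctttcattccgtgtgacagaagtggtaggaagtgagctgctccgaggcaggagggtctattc
The repeat, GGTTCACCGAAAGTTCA, begins at position -53 from the start. It was found by a search on both strands for a pair of half-sites spaced by 5 bases, where each half-site has the form AGGTCA, the form AGTTCA, the form GGGTCA or the form GGTTCA, which 0.0974% of all promoter windows hold. The other windows of these genes held no such pair spaced by 5 bases, and none of the 12 held one spaced by 2 bases, which 0.268% of all windows hold. Of the 12 windows, which cover 7 of the 9 genes, 4 held GCGTG: those of Aldh1a2, Crabp1 and Rarb and 1 of the Rarg windows. No window of Aldh1a3 or Crabp2 was used here.

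Cyp26b1 (chromosome 6), which encodes the hydroxylase that clears retinoic acid in the gonads of the embryo, had a ratio of 0.951 (p = 0.417) in the authors' deposited table. Its row had 11 possible probes, 5 of them kept by the filter and 0 past the adjusted threshold.

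Other genes of the pathway were examined as lists, of which few rows could be joined. Calls among those rows stand beside the 86.1% of all kept joined probes that passed in either direction. Among the genes for retinol uptake, carriers and storage, Lpl, the lipase that releases lipids, and retinyl esters with them, from lipoproteins, had a log2 fold change of 0.52 ± 0.088 (limma adjusted p = 1.33e-05). Among 22 oxidoreductase genes, 4 rows of 3 genes were joined. Both rows of Adh1, an alcohol dehydrogenase that oxidises retinol, rose (0.54 ± 0.086 and 0.50 ± 0.086). The joined rows of Dhrs4, a retinal reductase, and Retsat, which saturates retinol, fell by 0.37 ± 0.088 and 0.32 ± 0.085. Another Retsat row, not joined, had a ratio of 0.989 (the authors' p = 0.908) in the authors' deposited table.

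Among the P450 enzymes of retinoic acid catabolism, the 1 joined row of 3 genes was that of Cyp2s1, which AhR ligands are known to induce. Its log2 fold change was 0.78 ± 0.089 (limma adjusted p = 8.06e-09), with signals of 8.66, 8.88 and 8.71 in 3MC replicates 1 to 3, against 7.95, 7.86 and 8.08 in DMSO replicates 1 to 3. Cyp26a1, named after its value was seen, stood at a ratio of 0.986 (p = 0.614) in the authors' deposited table. Of 10 genes of receptor partners and coregulators, the 1 joined row was that of Ncor1, a corepressor that RARs bind without ligand, and it fell by 0.38 ± 0.088 (limma adjusted p = 0.000880). The RXR genes had ratios of 0.972 (Rxra), 1.090 and 0.947 (both rows of Rxrb) and 0.982 (Rxrg) in the authors' deposited table and were not joined.

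Among the genes known to be induced by retinoic acid, Rarres2, which encodes the chemoattractant chemerin, rose by 0.35 ± 0.085 on the log2 scale (limma adjusted p = 0.00146), and Rec8, a meiotic cohesin subunit, by 0.31 ± 0.087 (limma adjusted p = 0.00535). Of the 21 rows of that list, 0 reached 1.5-fold in the authors' deposited table and their median log2 ratio was 0.03. Stra8, the gene that retinoic acid induces at the onset of meiosis, had a ratio of 0.964 there (the authors' p = 0.178), named after its value was seen.

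Among 16 other aldehyde dehydrogenase genes 3 rows were joined, 2 higher and 1 lower. The joined rows of the mitochondrial enzymes Aldh4a1, of proline breakdown, and Aldh1l2, of folate metabolism, rose (0.67 ± 0.084 and 0.77 ± 0.092). That of Aldh3b1 fell by 0.32 ± 0.086. The rise of Aldh1a1 was therefore not the only one among ALDH genes. In the authors' deposited table, rows that were not joined had smaller ratios: 1.105 for Aldh1l2 (the authors' p = 0.0290). For Aldh3b1 they were 0.901 (the authors' p = 0.0341) and 0.978 (the authors' p = 0.678). Aldh3a1, an AhR target in other tissues, stood at a ratio of 1.044 (p = 0.323) in the authors' deposited table. With median centring, Cyp2s1, Aldh4a1 and Aldh1l2 kept their calls, as did the 4 joined AhR targets, and Lpl, Adh1 (both rows), Dhrs4, Retsat, Ncor1, Rarres2, Rec8 and Aldh3b1 lost theirs, with Lpl at an adjusted p of 0.0916 and Retsat at 0.0904.

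**Figure D3:**
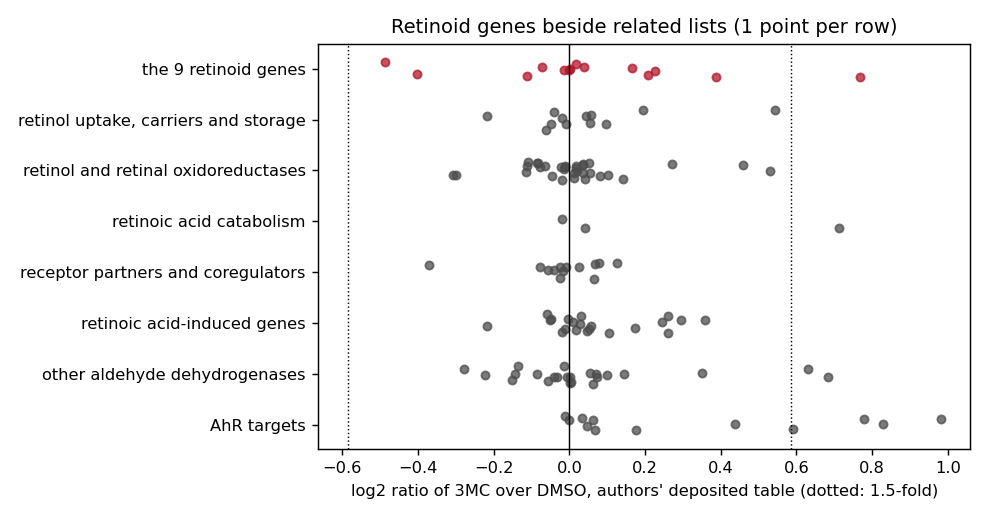
Log2 ratio of 3MC over DMSO in the authors' deposited table, with 1 point for each row, for the 9 genes and for the related lists; dotted lines mark 1.5-fold. Points pile up near 0 in each list, and the Aldh1a1 row, the Cyp2s1 row, 2 aldehyde dehydrogenase rows and 4 AhR target rows lie beyond 1.5-fold.

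In marker lists of the cell types that could carry these genes, joined rows went in both directions. Of all kept joined probes 86.1% passed in either direction, 35.9% with median centring and 78.7% without 3MC replicate 1. A count of joined rows that passed therefore does not by itself set a list apart. Of 4 joined rows of surface epithelium and mesothelium markers, where Aldh1a2 is found, 2 rose and 2 fell. Named after their values were seen, Upk1b had a log2 fold change of 1.38, Upk3b 0.34 (not called with median centring, adjusted p = 0.507), Lgr5 -1.01 and Krt19 -0.62. Their summed signal was 2540 to 2715 in 3MC samples and 2393 to 2658 in DMSO samples. Of 3 joined rows of theca and stroma markers 2 rose and 1 fell. Among 4 joined rows of 2 granulosa cell markers, named after their values were seen, 1 rose, a row of Wnt4. The others, 2 that fell and 1 that did not pass, were all rows of Amhr2. Both joined endothelial rows fell, but 7 more endothelial rows were not joined to any probe. The authors' deposited table gave 0 of these 7 an unadjusted p under 0.05, and their median was 0.03 on the log2 scale. Of 3 rows of smooth muscle and pericyte markers 2 rose and 1 fell. For mesonephric and rete markers 0 rows were joined. Of 6 joined rows of oocyte markers, 3 rose and 3 fell, and their summed signal was 21736 to 23867 in 3MC samples and 21273 to 22630 in DMSO samples. These counts depended on the scaling. With median centring, oocyte markers had 0 joined rows higher and 2 lower, and granulosa cell markers 0 and 2. Under the same centring, smooth muscle and pericyte markers had 0 and 1, and theca and stroma markers 1 and 1. Surface epithelium and mesothelium markers then had 1 and 2, and endothelial markers 0 and 1, while all 13 joined and kept leukocyte rows stayed lower. Without 3MC replicate 1, theca and stroma markers had 1 row higher and 0 lower, and oocyte markers 2 and 3.

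The genes whose 6 array values lay nearest to those of each member that passed were sought among the 2561 other joined and kept probes (2560 for Rarg, which has a second one), by the root mean square difference of values centred on each probe's mean. For Aldh1a1 they were Golt1b (0.037), Ppp1r3c (0.042) and Pak3 (0.047). For Aldh1a2 they were Pkd1 (0.032), Ebi3 (0.039) and LOC100045413 (0.040). For Stra6 they were Aebp1 (0.042), Tmem121 (0.044) and Mfge8 (0.045), and for Rarg Bcl6 (0.027), Ifna6 (0.028) and Cldn1 (0.029), all on the log2 scale. These are descriptions over 6 arrays that fall into 2 groups, and all the probes share those arrays.

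**Figure D4:**
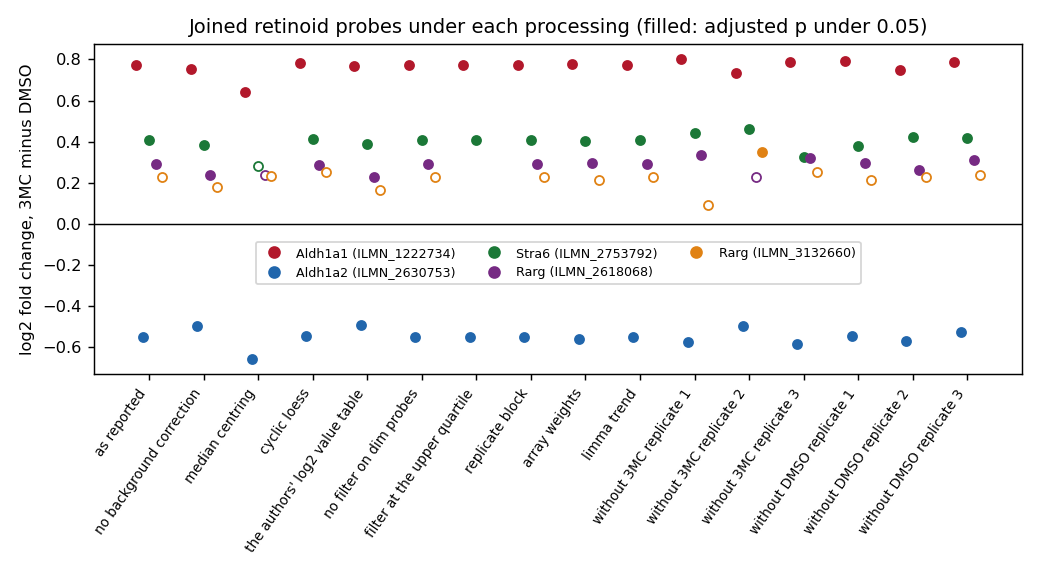
Log2 fold change of 3MC minus DMSO for the 5 joined probes under each processing, filled where the adjusted p was under 0.05; the upper quartile filter dropped both Rarg probes. Aldh1a1 lay between 0.64 and 0.80 and Aldh1a2 between -0.66 and -0.49 throughout, while Stra6 and Rarg lost their calls with median centring.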

How the data were processed

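RNA of 6 cultured ovary samples (3 with 3MC, 3 with DMSO) was measured on 1-colour Illumina arrays. The deposited scanner table holds intensity per probe, with no background correction or normalization stated per the file headers, and without detection values. The deposited log2 table holds values the authors normalized, with lumi per the submitters' processing notes, with version and settings not given in the sources used here. Per row, the authors' comparison table gives a ratio, a signed fold (a score that is the ratio above 1 and minus its inverse below) and an unadjusted p-value from a model not stated in the table. Precision is limited by the number of arrays.

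Scanner intensities were corrected with normexp (offset 50) and quantile normalized in limma 3.58.1 (R 4.3.3). Probes above the median mean signal were kept (12848 of 25697), and 3MC was compared with DMSO by lmFit and eBayes, with Benjamini-Hochberg adjustment over all kept probes and a threshold of 0.05. Rows were joined to probes by ratio within 5e-05 (2656 rows). Wrong joins made up 0.0% over 20 simulated tables. The simulated errors were distances of real rows to their nearest probe, so the true probe seldom left the tolerance. A share near 0 was therefore all but fixed in advance. It does not measure how often real rows were joined wrongly, because rows and probes share no identifier to check against. The alternatives were other background, scaling, filter, fit and join settings, each array left out in turn, and a replicate block.

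The members and lists were chosen with earlier results of these data known. Every row of each member was named, with up to 4 passing genes of largest change per pathway list and the 3 nearest probes by root mean square difference for each passing member. Aldh1a7, Aldh3a1, Cyp1a1, Cyp1a2, Tiparp, Cyp26a1, Stra8 and the RXR genes were named after their values were seen. Of the rows, 23739 matched the RefSeq table (GRCm38.p6) by accession, all 14 rows of these genes among them, which gave updated symbols. Chromosomes are those given in the authors' comparison table. Promoters are from RefSeq, and protein sequences were not used here. The result of 1 list gene is not reported here.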

Additional observations from a re-analysis of the deposited data

How the results depend on the processing

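Of 12848 probes, 4136 passed as reported. Median centring gave 1106, of which 31.0% were higher with 3MC against 49.0% as reported, and a filter at the upper quartile gave 2512. Leaving out 1 array gave 3339 to 3607, and 4 joined rows of these genes passed each time, though without 3MC replicate 2 the Rarg probe that passed was the other one. Median centring left 2 of them, Aldh1a1 and Aldh1a2, and the cause was not tested. Same-numbered arrays correlated at -0.079, -0.096 and 0.084 in their deviations from group means, and other pairs of a 3MC and a DMSO array at -0.068 to 0.141. Arrays of the same number thus showed no consistent likeness, which does not settle if the samples were paired. A replicate block gave 3986 probes and the same count of joined rows, 4. With a join tolerance of 0.0001, 3 rows were joined and 3 passed, and with one of 1e-05, chosen after seeing the data, 7 were joined and 5 passed. No log2 fold change of these genes reversed under any alternative run. Probes near or below the filter, which include possible partners of Aldh1a3, both Crabp genes and Cyp26b1, limit what can be said of those genes.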

Other observations

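Rows of the related lists that were not joined to any probe were counted in the authors' deposited table, where 20.2% of all rows had an unadjusted p of the authors under 0.05. Of 10 such rows for retinol uptake, carriers and storage, 1 had such a p: Rbp4, the plasma carrier of retinol, at a ratio of 3MC over DMSO of 1.145. Of all 32 rows of oxidoreductases, joined or not, 7 had such a p. Of these 7, 3 were not joined, 2 higher with 3MC (Rdh10 at 1.207 and Dhrs9 at 1.058) and 1 lower (Rdh9 at 0.942). Of 18 unjoined rows of genes induced by retinoic acid, 4 had such a p, all higher: Tgm2 at 1.226, Meis2 at 1.198, Hoxa5 at 1.197 and Hoxa2 at 1.127. The median log2 ratio of the unjoined rows was 0.02 in the first list and 0.03 in the third. Over all 32 oxidoreductase rows it was 0.01. These genes were chosen after their values were seen.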
